A study of Caenorhabditis elegans with 12 samples.

Results

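The abu, phat and pqn genes of Caenorhabditis elegans were followed in arrested first-stage (L1) larvae. They were taken as every gene of the authors' table for daf-2 RNAi against empty vector whose symbol is abu, phat or pqn followed by a number. Within that table the choice rests on names alone. It gave 55 of 12395 genes: 5 abu, 5 phat and 45 pqn genes. That table was limited by the authors to genes they took as reliably expressed, and all 55 also passed the filter on low counts used here. Of 82 annotated genes with these names, the other 27 are not in it under a symbol, and apart from phat-7 and phat-8 they had 0 to 223 reads over all libraries. The larvae were starved hrde-1(tm1200) progeny in all groups, so every comparison, controls included, was made in animals that lack the inherited silencing Argonaute HRDE-1. The parents, also hrde-1(tm1200), had grown for 72 h on HT115 bacteria with an empty vector, with daf-2 RNAi or with pitr-1 RNAi. daf-2 encodes the insulin/IGF receptor. The progeny hatched without food and were frozen about 24 h after the bleach. Each group held 4 libraries of polyadenylated RNA from whole larvae, called biological replicates 1 to 4 in the labels, so 12 libraries in all. Which cultures or days the replicate numbers stand for is not stated.

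The lumen of the worm pharynx is lined by a chitin-containing cuticle that differs from the collagen cuticle of the body. It is first made in the embryo before hatching and is replaced at each molt. abu stands for "activated in blocked unfolded protein response": these genes encode secreted or membrane proteins with cysteine-rich repeats and glutamine/asparagine-rich stretches, and several abu and related pqn genes are expressed in the pharynx and contribute to its cuticle. phat genes encode pharyngeal gland toxin-related secreted peptides. pqn stands for "prion-like-(Q/N-rich)-domain-bearing" and is a name given from protein sequence, so it also covers genes with roles far from the pharynx. Examples are pqn-85, the worm relative of the cohesin loader NIPBL, and pqn-59, a relative of human UBAP2L. The name pharyngeal cuticle therefore describes some of the 55 genes and not the class.

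Gene counts per library ran from 5907286 in pitr-1 RNAi replicate 1 to 11490429 in empty vector replicate 4, and ribosomal RNA took 15.2% to 44.8% of them. The 55 genes together held 9833 to 42248 counts per library, 0.164% to 0.429% of gene counts. The summed level of 6 pharyngeal muscle genes (myo-1, myo-2, tnc-2, tni-4, tnt-4 and ceh-22) was 1119 to 2582 CPM, so pharynx RNA was present in every library. CPM is the read count scaled by the TMM-adjusted library size. daf-2 RNA in the larvae was 46.6 to 85.3 CPM with empty vector and 21.9 to 63.5 CPM with daf-2 RNAi. pitr-1 RNA was 181 to 248 CPM with empty vector and 168 to 322 CPM with pitr-1 RNAi. The RNAi was given to the parents, so these values do not check the labels.

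Levels were compared between genes per length, as CPM per kb of annotated exon. The 55 genes ran from 0.587 CPM per kb in pqn-26 to 221 CPM per kb in phat-6, with a median of 13.8 (means over 12 libraries). The highest pqn genes were pqn-94 at 194 ± 30.1, pqn-59 at 191 ± 51.5, pqn-48 at 151 ± 30.7, pqn-53 at 122 ± 63.8 and pqn-44 at 73.2 ± 11.3 CPM per kb (SD over 12 libraries). The SD ranges of the first 4 overlapped, as did those of phat-5 at 136 ± 29.5 and phat-3 at 118 ± 26.99 CPM per kb. phat-6 itself had an SD of 112 CPM per kb. The other phat genes were lower, with phat-4 at 16.1 ± 16.5 and phat-2 at 7.86 ± 12.6 CPM per kb. Of the abu genes, abu-14 lay above the median of the 55, at 24.5 ± 35.3 CPM per kb. The other 4 lay below it, with abu-10 at 3.88 ± 4.05, abu-8 at 3.03 ± 3.32, abu-11 at 2.58 ± 2.60 and abu-13 at 0.736 ± 0.450 CPM per kb.

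Of the 3 families the abu genes were the most uneven between libraries by the median gene, with overlapping ranges. The ratio of the highest library to the median library had a median of 7.74 over the 5 abu genes (2.88 to 13.7), 3.06 over the 5 phat genes (1.22 to 15.3) and 1.54 over the 45 pqn genes (1.16 to 7.41). For abu-14, the abu gene with the most reads, replicates 1 to 4 stood at 12.8, 32.7, 7.64 and 7.95 CPM with empty vector, 8.06, 79.2, 30.1 and 4.55 CPM with daf-2 RNAi, and 13.1, 29.4, 178 and 10.7 CPM with pitr-1 RNAi. Replicate 2 was high in every group and replicate 3 was high after either RNAi but not with empty vector, so all 3 groups overlapped.

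In abu-10 and abu-8 as well, replicate 2 was high with empty vector and replicates 2 and 3 were high after either RNAi. abu-10 was at 0.730, 8.33, 1.21 and 2.15 CPM with empty vector, 0.199, 9.16, 10.6 and 2.06 CPM with daf-2 RNAi, and 1.05, 4.79, 16.6 and 2.14 CPM with pitr-1 RNAi. abu-8 was at 0.183, 8.51, 0.728 and 1.90 CPM with empty vector, 0.796, 8.97, 8.47 and 2.15 CPM with daf-2 RNAi, and 1.31, 4.44, 16.7 and 1.11 CPM with pitr-1 RNAi. In both genes replicate 1 was the lowest or next to lowest library of each group. These low values rest on few reads, 1 to 163 per library in abu-8 and 2 to 162 in abu-10.

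abu-11 stood at 3.29, 5.25, 0.606 and 0.414 CPM with empty vector, 0.398, 6.94, 2.02 and 1.37 CPM with daf-2 RNAi, and 2.36, 4.44, 11.8 and 1.25 CPM with pitr-1 RNAi. abu-13, the lowest of the family, ran from 0.121 to 1.82 CPM with empty vector, 0.498 to 1.202 CPM with daf-2 RNAi and 1.22 to 3.49 CPM with pitr-1 RNAi, from at most 34 reads per library. It is 1 of 13 genes of the 55 whose span overlaps that of a protein-coding gene on the opposite strand. Reads from any shared stretch of exon cannot be told apart with this kit, and overlap of exons was not examined. All 5 abu genes were highest in pitr-1 RNAi replicate 3. That library was the highest of the 12 for 13 of the 55 genes, namely 5 of 5 abu, 3 of 5 phat and 5 of 45 pqn genes. abu-6, abu-7 and abu-15, which are close relatives outside the table, held 11, 81 and 5 reads over all 12 libraries. How reads shared with such copies were assigned was not examined, which leaves the values of abu-8 uncertain.

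Of the phat genes, phat-3, phat-5 and phat-6 were abundant in every library and phat-2 and phat-4 were not. phat-5 was at 124, 128, 132 and 112 CPM with empty vector, 105, 99.9, 114 and 100.3 CPM with daf-2 RNAi, and 127, 143, 199 and 110.1 CPM with pitr-1 RNAi. phat-3 was at 75.4, 112, 101 and 121 CPM with empty vector, 117, 113, 72.1 and 114 CPM with daf-2 RNAi, and 137, 138, 67.8 and 134 CPM with pitr-1 RNAi. After either RNAi, replicate 3 was the lowest library for phat-3. For phat-5, replicate 3 was the highest library of every group, empty vector included.

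phat-6 was at 174, 148, 239.6 and 149 CPM with empty vector, 216, 131, 133 and 106 CPM with daf-2 RNAi, and 435, 137, 137 and 123 CPM with pitr-1 RNAi. After either RNAi its replicate 1 was the highest library, and with empty vector its replicate 3 was. phat-7 and phat-8, which the authors' table lists without a symbol and which are therefore outside the 55, had 322 to 733 CPM and 149 to 295 CPM. phat-7, the next gene to phat-3, was lowest in the same 2 libraries as phat-3, at 322 CPM in daf-2 RNAi replicate 3 and 332 CPM in pitr-1 RNAi replicate 3.

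phat-2 and phat-4 behaved more like the abu genes. phat-2 was at 0.730, 6.34, 2.06 and 0.663 CPM with empty vector, 2.89, 14.6, 7.97 and 1.12 CPM with daf-2 RNAi, and 0.262, 4.26, 37.8 and 1.11 CPM with pitr-1 RNAi. phat-4 was at 3.29, 12.7, 5.09 and 5.05 CPM with empty vector, 12.9, 22.2, 21.7 and 9.53 CPM with daf-2 RNAi, and 5.50, 13.2, 56.6 and 5.09 CPM with pitr-1 RNAi. phat-4 was higher than in the same-numbered empty vector library in 4 of 4 pairs after either RNAi, yet the groups overlapped. phat-1, the gene next to phat-2 and not among the 55, peaked at 12.1 CPM in pitr-1 RNAi replicate 3 and was at 0.183 to 3.79 CPM elsewhere.

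**Figure D1:**
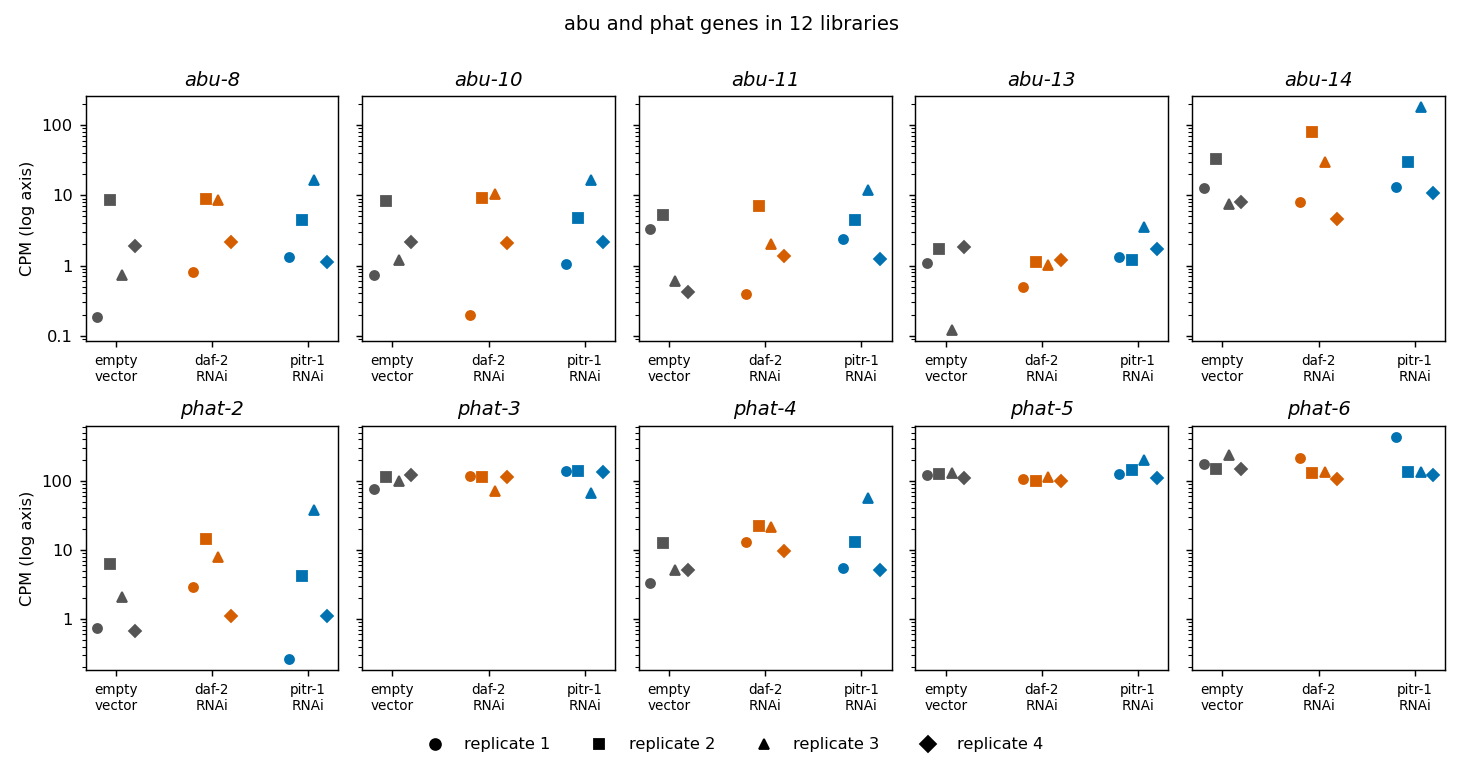
CPM (log axis, shared within a row) of the 5 abu and 5 phat genes in 12 libraries, with 1 point per library, colours for RNAi groups and symbols for replicate numbers. The abu genes, phat-2 and phat-4 spread more widely over the 12 libraries than phat-3 and phat-5, which stay between 67.8 and 199 CPM. The abu genes, phat-2, phat-4 and phat-5 peak in pitr-1 RNAi replicate 3 (178 CPM for abu-14). phat-6 runs from 106 to 435 CPM and peaks in pitr-1 RNAi replicate 1.

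The unevenness of the abu genes ran with that of transcripts of the early embryo. In replicates 1 to 4, the 5 abu genes summed to 18.1, 56.5, 10.3 and 14.2 CPM with empty vector, 9.96, 105, 52.1 and 11.3 CPM with daf-2 RNAi and 19.1, 44.3, 226 and 16.9 CPM with pitr-1 RNAi. The summed level of 12 early embryo and maternal genes, all of them detected, was 30.5, 55.7, 28.9 and 28.9 CPM with empty vector, 41.3, 184, 166 and 37.9 CPM with daf-2 RNAi and 18.8, 75.4, 213 and 38.1 CPM with pitr-1 RNAi. The 5 libraries with the highest abu sum were also the 5 with the highest early embryo sum. Larvae past hatching and unhatched embryos in the same culture cannot be separated in bulk RNA, and the part of the embryo transcripts in the abu values was not tested. Nor can fewer cells of a type and less RNA per cell be told apart.

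The pqn sum, by contrast, was 1655 to 2843 CPM and was highest in replicates 2 and 4 of each group. It was 1936 CPM in daf-2 RNAi replicate 3 and 1929.7 CPM in pitr-1 RNAi replicate 3, below every library of replicates 2 and 4. The phat sum was 331 to 705 CPM and highest in pitr-1 RNAi replicate 1. That library also had the highest sum of pharyngeal gland and cuticle genes outside the 3 families, at 2231 CPM against 598 to 1455 CPM elsewhere. That sum is mostly 1 gene, dod-6, which averaged 1028 ± 692 CPM with pitr-1 RNAi (SD, n = 4), where chs-2 averaged 5.04 ± 3.34 CPM.

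**Figure D2:**
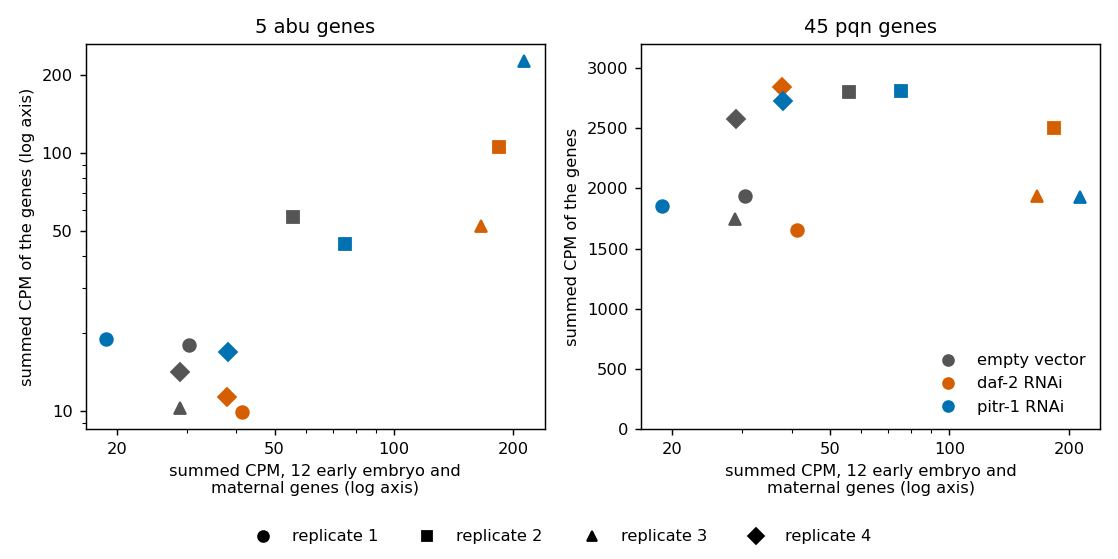
Summed CPM of the 5 abu genes (left, log axis) and the 45 pqn genes (right, linear axis) against the summed CPM of 12 early embryo and maternal genes (log axis), with 1 point per library. The 5 libraries with the most abu RNA (44.3 to 226 CPM) lie to the right at 55.7 to 213 CPM of early embryo genes, while the pqn sums fall into a lower level in replicates 1 and 3 and a higher one in replicates 2 and 4.

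Some phat and pqn genes ran with the abu genes over the libraries, as did genes outside the 3 families. As a description over the 12 libraries, which share depth and culture differences, log2 CPM was correlated with the mean log2 CPM of the abu genes. Of the 50 phat and pqn genes, 4 reached a Pearson r of 0.8, all of them pqn genes: pqn-74 (r = 0.94), pqn-13 (0.85), pqn-71 (0.84) and pqn-73 (0.81). Without pitr-1 RNAi replicate 3 and daf-2 RNAi replicate 2, the 2 libraries farthest from the median abu level, these r values were 0.87, 0.72, 0.79 and 0.66. phat-2 and phat-4 followed at 0.80 each, and at 0.55 and 0.56 without those libraries. Most of the 50 did not follow: 38 had r between -0.5 and 0.5, phat-3 and phat-6 were at -0.35 and -0.42, and pqn-68 was the most opposite at -0.65.

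pqn-74, whose predicted protein has chitin-binding domains, was at 3.10, 11.2, 1.21 and 2.40 CPM with empty vector, 3.29, 16.4, 7.26 and 3.78 CPM with daf-2 RNAi, and 2.88, 10.3, 26.2 and 2.43 CPM with pitr-1 RNAi. pqn-71 was at 1.64, 12.2, 1.58 and 1.41 CPM with empty vector, 1.69, 10.1, 8.98 and 6.70 CPM with daf-2 RNAi, and 0.785, 10.5, 15.8 and 3.39 CPM with pitr-1 RNAi. In both, replicate 2 was high in all groups and replicate 3 was high after either RNAi. Among genes outside the 3 families, the 8 most like the abu mean were chtb-3 (r = 0.98), ZK1010.4 (0.97), lron-2 (0.95), pgp-7 (0.95), orc-1, bus-8, E03H4.8 and dnj-27 (0.93 each). chtb-3 ran from 0.485 to 28.0 CPM.

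The first comparison asks how the families differ in starved progeny after daf-2 RNAi of the parents. None of the 55 genes passed the test (edgeR quasi-likelihood, Benjamini-Hochberg adjusted p under 0.05 over 14664 genes), where 0.0341% of all genes tested did. No gene of the 55 had an unadjusted p under 0.05 either, DESeq2 called 0 of 55, and the authors' deposited table, made with a batch correction, holds none at a false discovery rate under 0.05. In the authors' deposited table the lowest rate was 0.0997 for phat-4, beside a log2 fold change of 1.40. The log2 fold changes were above 0 in 31 genes and below 0 in 24, with a median of 0.02 against 0.0048 over all genes tested.

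The 5 abu genes had a median log2 fold change of 0.78 and ran from -0.34 ± 0.64 in abu-13 to 0.99 ± 0.95 in abu-14 (SE, n = 4 per group, here and below). The most positive values of the 55 were 1.39 ± 1.14 in phat-2, 1.32 ± 0.68 in phat-4, 0.99 in abu-14 and 0.97 ± 0.91 in pqn-26, a gene with at most 35 reads in a library. The most negative were -0.63 ± 0.41 in pqn-97, -0.45 ± 0.21 in pqn-92, -0.44 ± 0.42 in pqn-75 and the abu-13 value. Without daf-2 RNAi replicate 2 the abu-14 value turned to -0.11, phat-2 came to 0.66 and pqn-26 to 0.31. With 1 library left out, abu-13 ran from -0.71 (without empty vector replicate 3) to -0.053 (without empty vector replicate 4). In the same way pqn-75 ran from -0.75 (without daf-2 RNAi replicate 4) to -0.20 (without daf-2 RNAi replicate 1), and pqn-97 from -0.85 to -0.40 (without empty vector replicate 1 and 2).

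pqn-92 was the only one of the 55 whose 2 groups did not overlap, which 2.62% of all genes tested also showed. It stood at 28.7, 26.4, 22.2 and 22.9 CPM with empty vector and 13.5, 17.8, 20.2 and 21.7 CPM with daf-2 RNAi (edgeR adjusted p = 1.00). All 4 daf-2 RNAi libraries were below all 4 empty vector libraries, by a margin of less than 1 CPM at the nearest pair. With the replicate number as a block, 3 genes had an unadjusted p under 0.05, namely phat-4 above and pqn-75 and pqn-92 below empty vector. The smallest edgeR adjusted p among the 55 was then 0.489, in pqn-75, and none was called, where 0.314% of all genes were.

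The second comparison takes pitr-1 RNAi against the same empty vector libraries. Again none of the 55 genes was called by edgeR or DESeq2, beside 0.00682% of all genes by edgeR. Only phat-4 had an unadjusted p under 0.05, and its edgeR adjusted p was 1.00. The log2 fold changes were above 0 in 42 genes and below 0 in 13, with a median of 0.21 against 0.022 over all genes tested. Medians of the same-numbered pairs were above 0 in 3 of 4 pairs. All 5 abu and all 5 phat genes were above 0, with medians of 1.02 and 0.22, and the pqn median was 0.11. In the authors' deposited table the lowest false discovery rate of the 55 was 0.999. With the replicate block, 1 phat and 1 pqn gene had an unadjusted p under 0.05, both above empty vector, and none of the 55 was called. The largest phat and abu log2 fold changes were then 1.53 and 1.32.

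The largest differences rested on 1 library. The log2 fold changes were 2.12 ± 1.15 in phat-2, 1.92 ± 0.96 in abu-14, 1.61 ± 0.68 in phat-4 and 1.21 ± 0.80 in pqn-74. Without pitr-1 RNAi replicate 3 they were -0.31, 0.22, 0.28 and 0.22. The most negative values were small, -0.22 ± 0.21 in pqn-92, -0.21 ± 0.40 in pqn-97, -0.16 ± 0.23 in pqn-48 and -0.13 ± 0.42 in pqn-75. No gene of the 55 had groups that did not overlap, beside 1.35% of all genes tested.

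Between the 2 RNAi treatments none of the 55 genes was called by edgeR or DESeq2, beside 0.0136% of all genes by edgeR. This comparison uses the same libraries as the other two, so its values are not a separate line of evidence. Relative to pitr-1 RNAi, 45 of the 55 genes were below 0 after daf-2 RNAi and 10 above, with a median of -0.19 against -0.016 over all genes tested, and the pair median was above 0 in 0 of 4 pairs. The abu, phat and pqn medians were -0.90, -0.46 and -0.13.

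abu-13 had the most negative log2 fold change, -1.02 ± 0.63, followed by abu-14 (-0.93 ± 0.93), abu-11 (-0.90 ± 0.89) and phat-2 (-0.73 ± 1.08). Without pitr-1 RNAi replicate 3, abu-13 was at -0.56, abu-14 at 0.78, abu-11 at -0.0008 and phat-2 at 1.71. The abu median of this comparison is the abu-11 value. The most positive values were 0.17 ± 0.23 in pqn-48, 0.15 ± 0.42 in pqn-36, 0.11 ± 0.63 in pqn-80 and 0.099 ± 0.26 in pqn-27. The 2 genes with an unadjusted p under 0.05 were both lower after daf-2 RNAi. They were phat-5, with a log2 fold change of -0.46 ± 0.19, and pqn-98, with -0.71 ± 0.30, each at an edgeR adjusted p of 1.00.

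pqn-98, named here after its values were seen, stood at 6.07, 6.94, 5.95 and 4.03 CPM with daf-2 RNAi and 10.2, 9.40, 8.62 and 9.36 CPM with pitr-1 RNAi. Its groups did not overlap, and neither did those of abu-13, 2 of the 55 genes beside 2.05% of all genes tested. Empty vector libraries ranged across both, at 3.29 to 8.85 CPM for pqn-98. With the replicate block the smallest edgeR adjusted p was 0.468, in phat-5, and 0.15% of all genes were called.

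**Figure D3:**
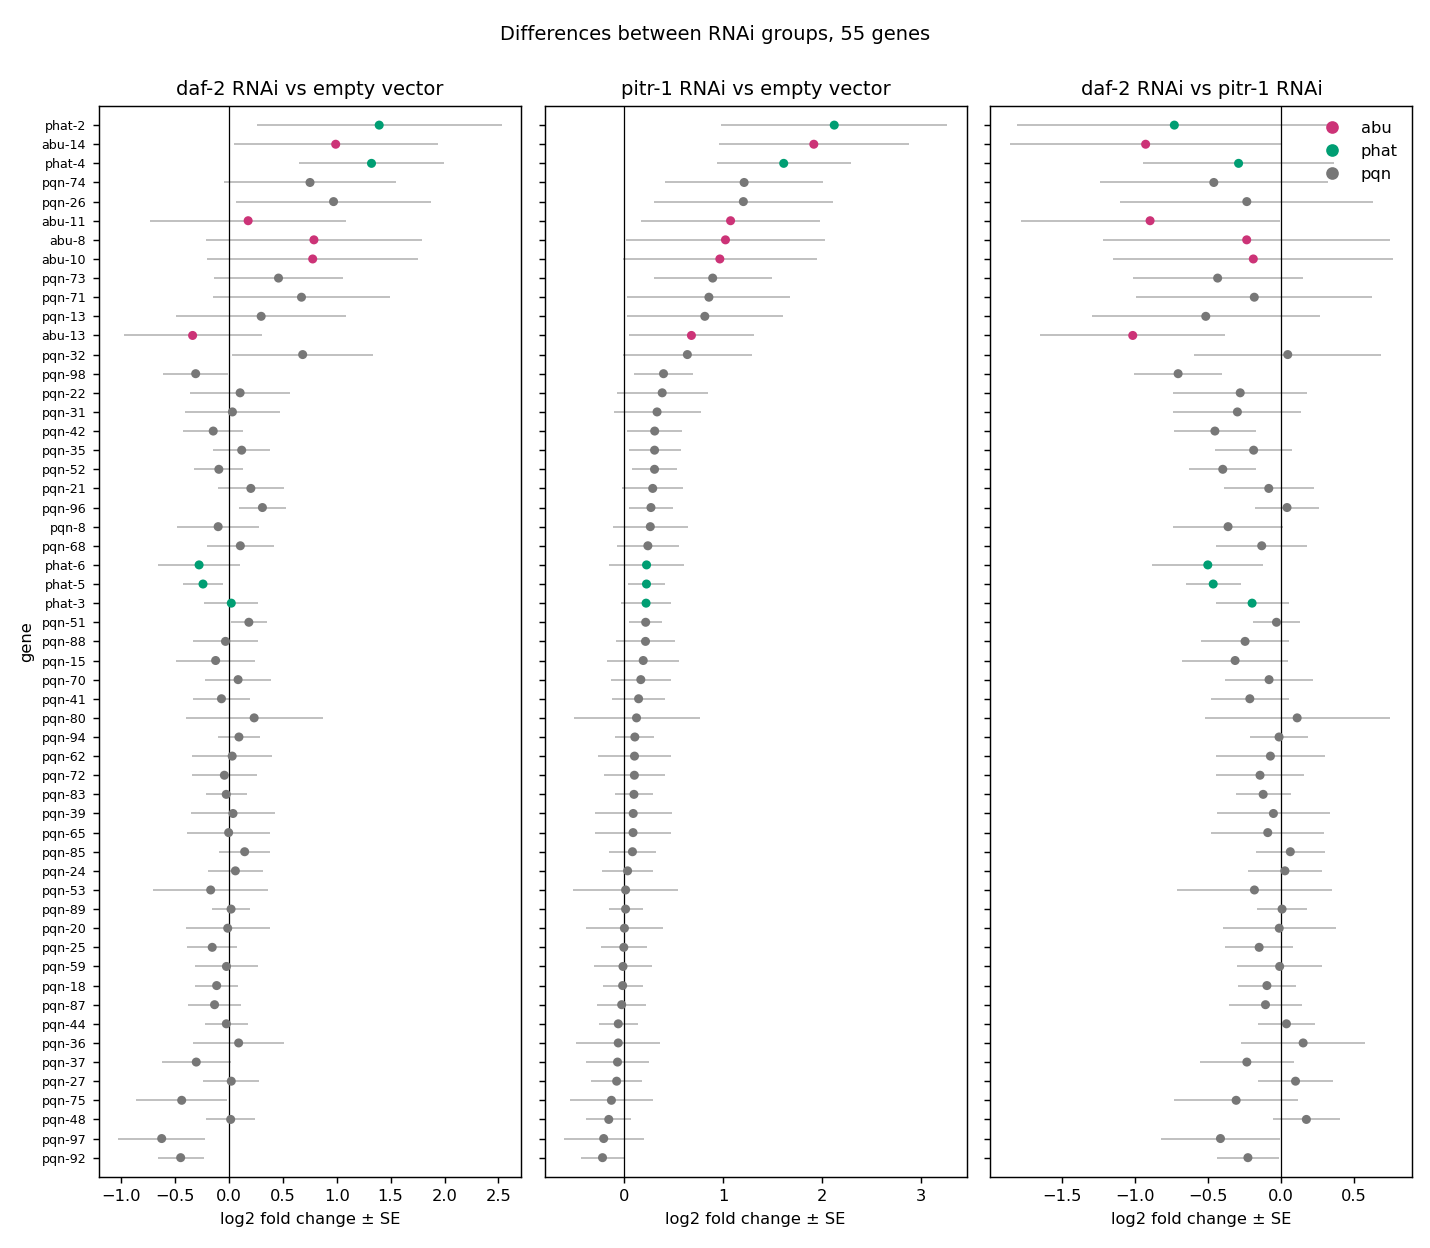
log2 fold change ± SE of the 55 genes in the 3 comparisons (n = 4 libraries per group), ordered by the middle panel and coloured by family. phat-2, abu-8, abu-10 and abu-14 have the 4 widest error bars in each panel, single pqn genes such as pqn-74 (1.21 after pitr-1 RNAi) lie far from 0, and none of the 55 was called in any panel.

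Many of the 55 genes differed between replicate numbers. A test between the 4 replicate numbers, with the RNAi group in the fit, called 22 of the 55 genes, or 40.0%, where 26.6% of all 14664 genes were called (edgeR quasi-likelihood F test on 3 coefficients, adjusted p under 0.05). The 55 come from the 12395 genes that the authors took as reliably expressed. The 14664 are a larger set that was not matched to the 55 by level, here and below. The 22 were 2 of 5 abu, 2 of 5 phat and 18 of 45 pqn genes. Which day, culture or preparation the numbers share is not stated, so no name is given to the difference. The count was 14 without replicate 2 and 15 without replicate 4, against 24 and 25 without replicates 1 and 3. The share of all genes called fell alike, to 12.7% and 13.6% without replicates 2 and 4, against 26.9% and 24.95% without replicates 1 and 3.

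One split of the replicate numbers recurred among pqn genes and was also found outside them. In 14 of the 55, all of them pqn genes, each of the 6 libraries of replicates 2 and 4 lay above each of the 6 libraries of replicates 1 and 3, which is 25.5% of the 55 where 8.1% of all genes tested did so. These were pqn-20, pqn-31, pqn-36, pqn-39, pqn-48, pqn-53, pqn-59, pqn-62, pqn-65, pqn-70, pqn-75, pqn-80, pqn-85 and pqn-87. The reverse order was found in 2, pqn-83 and pqn-89, or 3.64% of the 55 where 7.84% of all genes did so. The grouping of numbers was chosen after the values were seen and has no test of its own. Read composition split the libraries in the same way. Reads outside features were 3.21% to 4.60% in replicates 2 and 4 and 1.71% to 2.67% in replicates 1 and 3. Ambiguous reads were 4.59% to 6.05% and 6.63% to 8.45%. The part of read composition in the pqn values was not tested.

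pqn-62 had the smallest p. It was at 81.4, 154, 69.8 and 160.1 CPM with empty vector, 86.7, 137, 78.2 and 174 CPM with daf-2 RNAi, and 80.9, 169, 71.8 and 178 CPM with pitr-1 RNAi (edgeR adjusted p = 0.000198). The 2 levels were apart by 2.07 times on average and hardly varied with RNAi. pqn-53 was at 129.7, 313, 115.1 and 264 CPM with empty vector, 63.9, 229, 114 and 324 CPM with daf-2 RNAi, and 72.0, 310.3, 129 and 316 CPM with pitr-1 RNAi (edgeR adjusted p = 0.000323).

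pqn-59, the most abundant of the 55 by CPM, was at 383, 567, 306 and 523 CPM with empty vector, 235, 502, 403 and 609 CPM with daf-2 RNAi, and 357, 564, 339 and 499.5 CPM with pitr-1 RNAi. Its span overlaps that of a gene on the same strand. The counts set ambiguous reads apart and overlap of exons was not examined, so any effect on its level is not known. pqn-85, the cohesin loader relative, was at 58.8 to 65.9 CPM in replicates 2 and 4 and 33.2 to 49.7 CPM in replicates 1 and 3 (edgeR adjusted p = 0.00699). The ratio of the mean of replicates 2 and 4 to that of replicates 1 and 3 was 1.40 in pqn-48 to 2.93 in pqn-80 over the 14 genes. pqn-48 overlaps rpn-11, a proteasome subunit gene, on the opposite strand, and the kit does not mark strand.

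The other genes among the 10 of smallest p were pqn-39, pqn-70, pqn-65, pqn-75, pqn-20 and pqn-31, with edgeR adjusted p of 0.000869, 0.00141, 0.00167, 0.00188, 0.00321 and 0.00323, and abu-10 (0.00745). abu-10 followed another order, highest by mean in replicates 2 and 3, at 7.42 ± 2.32 and 9.47 ± 7.76 CPM, and lowest in replicate 1, at 0.659 ± 0.428 CPM (SD, n = 3 libraries). In empty vector replicate 3 abu-10 was at 1.21 CPM. Its call was lost without replicate 1 (edgeR adjusted p = 0.220), and that of pqn-85 without replicate 2 or 3 (0.0746 and 0.0633). Over all alternatives, calls among these 10 genes were lost 4 times, these included. Of the other abu and phat genes, abu-8, phat-2 and phat-6 were called. By mean, replicate 3 was highest for abu-8, at 8.64 ± 7.997 CPM, and for phat-2, at 15.96 ± 19.18 CPM. Its libraries ran widely, from 0.728 to 16.7 CPM for abu-8 and from 2.06 to 37.8 CPM for phat-2. In the fit, replicate 2 of abu-8 was slightly above replicate 3, with log2 fold changes over replicate 1 of 3.47 and 3.42. phat-6 was highest in replicate 1, at 275 ± 139.8 CPM against 126 ± 21.6 CPM in replicate 4. phat-3, phat-4, phat-5, abu-11, abu-13 and abu-14 were not called.

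**Figure D4:**
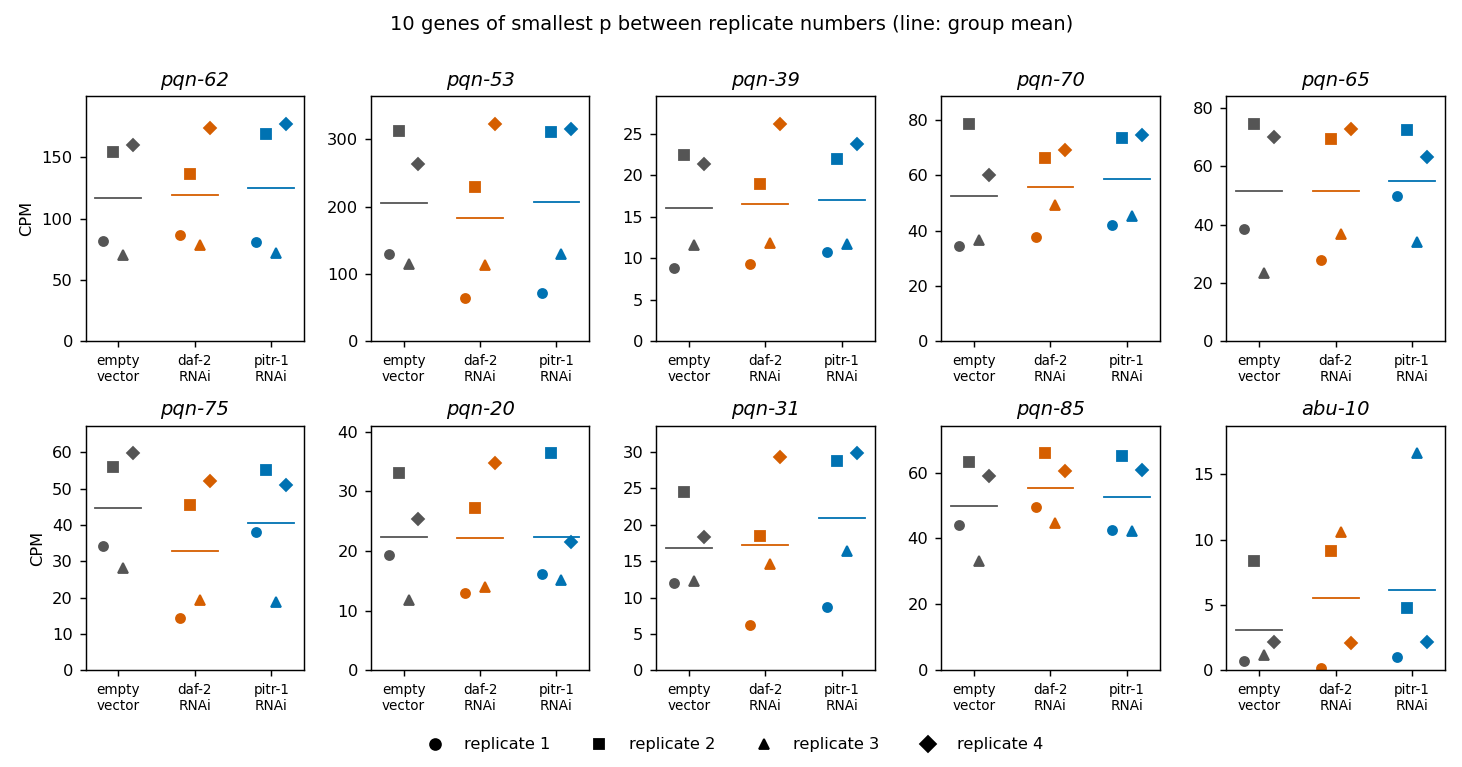
CPM in 12 libraries (linear axes from 0) of the 10 genes with the smallest p between replicate numbers, with 1 point per library, symbols for replicate numbers and lines for group means. In the 9 pqn genes replicates 2 and 4 (squares and diamonds) lie above replicates 1 and 3 in every group (154 and 160.1 CPM against 81.4 and 69.8 CPM for pqn-62 with empty vector). abu-10 is high in replicate 2 of every group, and in replicate 3 after either RNAi but not with empty vector.

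Genes of other tissues differed between replicate numbers as well. Pharyngeal muscle genes were called in 4 of 6, body wall muscle genes in 6 of 6, ER stress genes in 7 of 16 and early embryo genes in 5 of 12. Of all 14664 genes tested, 26.6% were called, and each of these lists is short. The summed pharyngeal muscle level was 1975 to 2582 CPM in replicates 2 and 4 and 1119 to 1438 CPM in replicates 1 and 3, so it split the libraries as the 14 pqn genes did. The body wall muscle sum split them likewise, at 3977 to 5060.0 CPM and 2113 to 2692 CPM. The part of tissue makeup in the pqn values was not tested. Calls were made in 0 of 5 epidermal, 1 of 8 neuronal, 1 of 9 intestinal, 1 of 7 pharyngeal regulator, 1 of 14 body cuticle collagen, 2 of 15 molting and 2 of 6 pharyngeal gland and cuticle genes.

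Genes related to the 3 families by role were read in the same RNAi comparisons. None of the 16 ER stress genes, which include the chaperones hsp-3 and hsp-4 and the sensors ire-1, pek-1 and atf-6, was called in any of the 3 RNAi comparisons. Their median log2 fold changes were 0.076, 0.11 and -0.04. ced-1 and octr-1, reported upstream regulators of pqn and abu genes, were not called either, nor was arr-1 (3 genes, medians -0.10, -0.0049 and -0.097). Of the pharyngeal gland and cuticle genes outside the families, 0 of 6 were called. Among them, chs-2, the chitin synthase of the pharynx, had log2 fold changes of 0.65 ± 0.79 after daf-2 RNAi and 1.10 ± 0.79 after pitr-1 RNAi. No gene of 15 molting and apical matrix genes or 14 body cuticle collagens was called, with medians of 0.59 and 0.64 after pitr-1 RNAi and 0.12 and 0.11 after daf-2 RNAi. With the replicate block these medians were 0.37 and 0.20 after pitr-1 RNAi and -0.0064 and -0.12 after daf-2 RNAi. The 12 early embryo and maternal genes, none called, had the highest list medians against empty vector, 1.52 after daf-2 RNAi and 1.13 after pitr-1 RNAi, with 11 of 12 above 0 in each. Markers of the epidermis, body wall muscle, intestine and neurons and the pharyngeal regulators were not called either, apart from 1 intestinal gene, the oligopeptide transporter pept-1, which fell after daf-2 RNAi with the replicate block alone. pept-1 was at 22.7 ± 4.20 CPM after daf-2 RNAi and 38.2 ± 8.87 CPM with empty vector (SD, n = 4). Its log2 fold change was -0.75 ± 0.14 with the block (edgeR adjusted p = 0.0394), and without the block the edgeR adjusted p was 0.698.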

How the data were processed

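For each of 12 libraries the authors deposited a table of raw read counts, with 44968 gene entries and 5 summary entries. The summary entries (16.3% to 39.8% of reads without an alignment, 4.59% to 8.45% ambiguous, 1.71% to 4.60% outside features) stayed out of library sizes. Bowtie 1.2.2, HTSeq and edgeR are named per the submitters' processing notes. The sources used here name no genome build or annotation for the counts. The kit is non-directional per the labels' protocols. The authors' deposited table of log2 fold changes, F scores, p-values and false discovery rates chose the genes by symbol and was otherwise only set beside the values here.

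Tests used edgeR 4.0.16 in R 4.3.3 on the deposited counts: TMM, filterByExpr (14664 genes kept), robust quasi-likelihood fits of all 12 libraries with 1 coefficient per RNAi group, two-sided, with Benjamini-Hochberg adjustment over all genes. SE is the absolute log2 fold change over the square root of F. The test between replicate numbers added the replicate number to that fit. Exon lengths, neighbours and names outside the authors' table came from the Ensembl release 115 annotation. Protein classes and sequences were not analysed here. Scripts were tested on simulated data.

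Same-numbered libraries deviated together from their group means (correlations over genes of 0.137 to 0.505, 0.104 to 0.508 and 0.434 to 0.610 in the 3 comparisons, all above the limit of 0.1). The pairing comes from the data, not the labels. edgeR estimated a common biological coefficient of variation of 0.367, and of 0.240 with the replicate block. The labels do not say which cultures were separate, so p-values measure the spread between these libraries, which may be technical.

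The 55 genes, the lists around them and the tests were chosen with earlier results of these data known. Genes were named if called (at most 10 by p between replicate numbers), among the 4 highest or 4 lowest fold changes of a comparison, among the 5 highest levels per length of a family, or, outside the families, among the 8 most like the abu mean; list genes beyond these are given as counts. Alternatives were the replicate block, DESeq2 1.42.0, its size factors, no filter, only the compared groups, no ribosomal RNA genes, and leaving out libraries.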

Additional observations from a re-analysis of the deposited data

Results flagged for a closer look

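In 6 of 90 groups of 4 libraries (30 named genes in 3 groups), 1 library stood apart from the other 3 by a gap past Dixon's critical value. Chance flags about 1 in 20 groups of normally distributed values. Some of the 30 genes were named for fold changes that rest on the flagged libraries, so the flags only describe these values. In pitr-1 RNAi replicate 3, abu-14 was at 178 CPM against 10.7 to 29.4 CPM in the other 3 libraries, phat-2 at 37.8 against 0.262 to 4.26 CPM and phat-4 at 56.6 against 5.09 to 13.2 CPM. In the same library phat-3 was low, at 67.8 against 134 to 138 CPM. phat-3 was also low in daf-2 RNAi replicate 3, at 72.1 against 113 to 117 CPM. phat-6 was at 435 CPM in pitr-1 RNAi replicate 1 against 123 to 137 CPM in the other 3. pitr-1 RNAi replicate 3 had the highest early embryo and maternal sum (213 CPM), and pitr-1 RNAi replicate 1 had the fewest gene counts (5907286) and the largest share of reads not aligned (39.8%). The part of either in these values was not tested.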

How the results depend on the processing

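abu-13 held 1 to 34 reads per library, which limits what its values can show. abu-14 held 50 to 1733 reads and still ran from 4.55 to 178 CPM. None of the 55 genes was called in any RNAi comparison under any alternative, with 0, 0 and 0 called under the replicate block as well. The block moved the count of all genes called from 5 to 46 for daf-2 RNAi against empty vector and from 2 to 22 between the RNAi treatments. DESeq2 called 50 and 22 there, and no filter 13 and 6. Only the compared groups gave 0 between the treatments. Median log2 fold changes with 1 library left out ranged from -0.12 to 0.20, from 0.095 to 0.29 and from -0.30 to -0.039 in the 3 comparisons, and with the replicate block were 0.030, 0.19 and -0.14.

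Signs turned in genes without a call. With 1 library left out, log2 fold changes after daf-2 RNAi ran from -0.11 (without daf-2 RNAi replicate 2) to 1.70 in abu-14. After pitr-1 RNAi they ran from -0.44 to 0.011 (without empty vector replicate 2) in pqn-97, from -0.32 to 0.11 in pqn-75 (0.043 without empty vector replicate 4, 0.11 without pitr-1 RNAi replicate 3) and from -0.31 (without pitr-1 RNAi replicate 3) to 3.25 in phat-2. Between the treatments they ran from -0.077 (without pitr-1 RNAi replicate 1; -0.030 without daf-2 RNAi replicate 2) to 0.38 in pqn-36 and from -0.56 (without daf-2 RNAi replicate 4) to 0.57 in pqn-80, with -0.19 and -0.016 when replicate 1 or 3 of pitr-1 RNAi was out. Those of abu-14 and phat-2 ran from -2.03 and -1.47 (without daf-2 RNAi replicate 2) to 0.78 and 1.71 (without pitr-1 RNAi replicate 3). An alternative chosen after seeing the data left out the 3 libraries of highest early embryo sum. It gave -0.32 for phat-2 and -1.28 for abu-14 after daf-2 RNAi, -0.33 for phat-2 and 0.10 for pqn-75 after pitr-1 RNAi, and -0.14 for pqn-27 and 0.011 for phat-2 between the treatments. The cause was not tested.

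Between replicate numbers, 22 genes became 14 to 28 when libraries or numbers were left out (12.7% to 38.1% of all genes). Leaving out single libraries was also chosen after seeing the data. The count was 32 with the DESeq2 likelihood ratio test (34.2% of all genes) and 20 without those 3 libraries (15.5%). With no filter it was 33, beside 15.2% of 31072 genes. These include genes under the filter on low counts, which all 55 passed.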
